A study of Mus musculus with 15 samples.

Results

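Of the 15 RNA-seq libraries of mouse hippocampal neuron cultures, 7 came from cultures that received no acetate, and those 7 are described here. They were divided by one measured value: in each of their 2 groups, the library with the lowest level of Csf1r was set apart. Csf1r encodes the receptor of colony stimulating factor 1, on which microglia depend. The library set apart was DMSO vehicle 1 among the 4 cultures given DMSO (the solvent of the inhibitor) and inhibitor vehicle 2 among the 3 cultures given an inhibitor of ACSS2, an enzyme that turns acetate into acetyl-CoA. These 2 are called the low-Csf1r libraries below, and the remaining 5 vehicle libraries the others. Primary hippocampal neurons had been differentiated for 7 days and then kept for 24 h in neurobasal medium as vehicle, with DMSO or with 20 µM inhibitor. The 8 acetate libraries, 4 with DMSO and 4 with inhibitor, had 5 mM acetate over the same 24 h and serve here for comparison. The labels give neither the strain, age or sex of the mice, nor the number of animals or cultures behind a replicate number, so p-values measure only the spread between these samples, which may be technical.

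A primary hippocampal culture is mainly neurons, but dissociated tissue also carries glia and cells of the vessel walls, meninges and choroid plexus. Microglia are the resident macrophages of the brain: they clear debris, present antigen, and release complement and cytokines. Astrocytes take up glutamate and supply neurons with cholesterol, and oligodendrocyte precursors mature in steps into myelinating cells. Fibroblasts of the meninges and pericytes lay down collagen and basement membrane. Because whole cultures were lysed, fewer cells of a type and less RNA per cell cannot be told apart in these data.

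The 7 vehicle libraries held 19929931 to 27262766 reads counted to genes (median 24258345), so that 1 read was worth 0.0324 to 0.0460 CPM (counts scaled so that all libraries have the same total). Inhibitor vehicle 2 stood apart in the counting itself: reads not assigned to a gene made up 47.4% of its total and 38.9% to 39.8% of the totals of the other 6 vehicle libraries. The ribosomal RNA precursor Rn45s took 4.25% of its gene counts, against 0.966% in DMSO vehicle 1, 0.499% to 0.759% in the others and 0.345% to 1.20% in the acetate libraries. The part of that difference in the results below was not tested. The number of genes called lower was the same, 1825, with the ribosomal RNA rows left out. Those rows were called higher themselves, so leaving them out could barely change that number and is no test of the difference.

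On the plain CPM scale used to divide the libraries, Csf1r stood at 10.2 CPM in DMSO vehicle 1 (262 reads), and the next DMSO vehicle library was at 59.4 CPM. It stood at 1.32 CPM in inhibitor vehicle 2 (30 reads), and the next inhibitor vehicle library was at 33.1 CPM. All other CPM values below are scaled to the libraries' composition (TMM factors). Since both libraries were picked by what was measured in them, differences between them and the others are given as descriptions, with no test. A difference is the log2 difference of the low-Csf1r libraries from the others in a fit with the inhibitor as a covariate, and a gene is called lower or higher where it reached 1.5-fold and both low-Csf1r libraries lay outside the range of all 5 others. By that rule 1825 of 14977 genes (12.2%) were lower and 475 (3.17%) were higher, and the median difference over all genes was 0.02. With 1 of the pair left out, the number higher was 869 without DMSO vehicle 1 and 935 without inhibitor vehicle 2. Without the size limit, both low-Csf1r libraries lay below all 5 others for 2654 genes (17.7%) and above them for 1988 (13.3%).

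Each low-Csf1r library can also be set against its own group, and these 2 sets of differences share no library. Across the 14977 genes, the difference of DMSO vehicle 1 from DMSO vehicle 2 to 4 and that of inhibitor vehicle 2 from inhibitor vehicle 1 and 3 were related with Pearson's r = 0.75 and Spearman's rho = 0.55, given as a description across genes, which are not independent replicates. Both libraries were picked for the same low marker. Of 13683 genes tested in every fit, 1531 (11.2%) were lower in DMSO vehicle 1 and 1732 (12.7%) in inhibitor vehicle 2. The 988 genes lower in both made up 64.5% of the first list and 57% of the second. For the higher genes the shared 357 were 41.6% of 858 and 38.8% of 920, which were 6.27% and 6.72% of all genes. Opposite calls were fewer, with 17 genes lower in DMSO vehicle 1 and higher in inhibitor vehicle 2 (1.11% of the 1531), and 40 the other way round (4.66% of the 858).

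**Figure D1:**
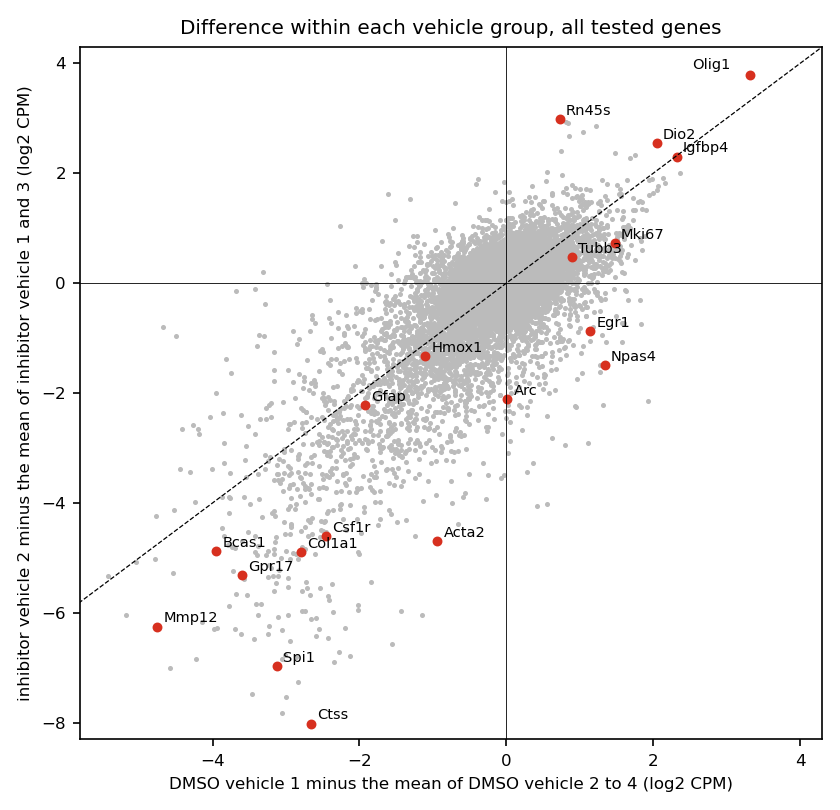
Each grey point is 1 of 14977 genes, with the log2 CPM difference of DMSO vehicle 1 from DMSO vehicle 2 to 4 on the x axis and of inhibitor vehicle 2 from inhibitor vehicle 1 and 3 on the y axis; red points are named genes and the dashed line marks equal differences. Microglial genes (Ctss, Spi1, Csf1r) sit at the lower left, further down on the inhibitor axis than to the left on the DMSO axis, Olig1 sits at the upper right, and Npas4, Egr1 and Arc were low in inhibitor vehicle 2 alone.

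Microglial and macrophage genes gave the largest differences of any cell type list. Of 23 tested genes of the list, 22 were lower (Csf1r, whose call the choice of libraries fixed, is one of them) and none was higher, with a median difference of -3.17, within-group medians of -2.42 for DMSO vehicle 1 and -4.60 for inhibitor vehicle 2, and a median over all genes of 0.02. The summed level of the list was 222 CPM in DMSO vehicle 1 and 49.0 CPM in inhibitor vehicle 2, against 843 to 1060.1 CPM in the others. C1qa, a chain of the complement starter C1q, was at 24.2 CPM in the low-Csf1r DMSO library (others 102, 94.3 and 99.8) and 0.864 CPM in the low-Csf1r inhibitor library (others 54.1 and 63.7). Its neighbour C1qc was at 23.9 CPM in the low-Csf1r DMSO library (others 102, 107 and 106) and 0.591 CPM in the low-Csf1r inhibitor library (others 69.2 and 79.4). Both low-Csf1r libraries were thus far under every other vehicle library, and inhibitor vehicle 2 was near 0. The master transcription factor of macrophages, Spi1 (PU.1), was at 3.59 and 0.136 CPM (others 30.1 ± 2.82, SD, n = 5) (difference -4.00), and the lysosomal protease Ctss, at 6.001 and 0.0455 CPM (others 36.3 ± 4.55, SD, n = 5), gave a within-group difference of -8.02 in inhibitor vehicle 2. Tmem119, a marker that separates resident microglia from other macrophages, was at 0.642 and 0.227 CPM (others 6.72 ± 1.39, SD, n = 5). Aif1, which encodes IBA1, differed less, at 1.25 and 0.9097 CPM (others 6.46 ± 2.41, SD, n = 5). Cx3cr1, the fractalkine receptor, was the member not called: it stood at 3.85 CPM in the low-Csf1r DMSO library (others 15.4, 13.4 and 12.3) and 0.227 CPM in the low-Csf1r inhibitor library (others 2.89 and 6.17), so that DMSO vehicle 1 was above inhibitor vehicle 1. P2ry12 could not be tested, with 4 to 12 reads in each of the 7 libraries. Microglial RNA was low but present in DMSO vehicle 1, where none of the 23 genes was at 0, and in inhibitor vehicle 2 Mrc1 alone was at 0.

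C1qc lies on the minus strand of mouse chromosome 4, and a stretch of its promoter is shown because it carries the PU.1 word of a gene group that was low together. In the promoters that RefSeq gives on GRCm38.p6, read from 250 bases before to 50 bases after the gene start on both strands, the word GAGGAAGT occurred in 383 of 11380 tested genes with a promoter entry (3.37%) and in 3 of 16 microglial genes with one (18.8%), namely C1qc, Ctss and Cd53. Among the genes called lower it occurred in 72 of 1330 (5.41%) and among those called higher in 11 of 337 (3.26%). A match is a description of the letters, not of a bound site. The stretch is printed 5′ to 3′ on the gene's strand at chr4:136893030-136893149 (GRCm38.p6), with the match, which begins 195 bases before the start and reads as the reverse complement of the word, in capitals.
C1qc: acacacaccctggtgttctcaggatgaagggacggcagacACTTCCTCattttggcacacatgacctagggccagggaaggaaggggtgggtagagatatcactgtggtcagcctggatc

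Immune effector genes followed the microglial list. In the list of complement, chemokines and cytokines 14 of 20 genes were lower and none higher (median -3.15). The complement hub C3 stood at 5.66 and 0.455 CPM (others 48.9 ± 21.9, SD, n = 5), and the cytokine gene Tnf at 1.62 and 0.0455 CPM (others 10.9 ± 5.69, SD, n = 5). Il1b was lower as well but on few reads, at 0.113 and 0 CPM (others 0.862 ± 0.501, SD, n = 5), while the chemokine gene Ccl2 was not called, with 1.25 and 0.091 CPM (others 3.42 ± 2.19, SD, n = 5). In the antigen presentation list 13 of 14 genes were lower (median -2.13). B2m, the light chain of class I molecules, was at 82.6 CPM in the low-Csf1r DMSO library (others 237, 204 and 231) and 54.99 CPM in the low-Csf1r inhibitor library (others 182 and 229). H2-K1 and H2-D1, which encode class I heavy chains and resemble each other closely enough that reads could be shared, had differences of -2.24 and -2.01. Cd74, the invariant chain of class II, was at 0.868 and 0.546 CPM (others 4.18 ± 0.607, SD, n = 5). Interferon-stimulated genes were called lower in 13 of 23 cases (median -1.11), among them the regulator Irf7 (difference -1.85), whereas Ifit1 (-1.51) and Isg15 (-1.11) had values in DMSO vehicle 1 inside the range of the others. The lysosome list held 12 lower genes of 20 (median -0.87). Its protease genes Ctsd, at 1091 and 827 CPM (others 2495 ± 142, SD, n = 5), and Ctsb, at 471 and 348 CPM (others 1042 ± 79.3, SD, n = 5), were called, and Lamp1, a membrane protein of all lysosomes, was not (difference -0.50).

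The 10 genes with the lowest differences at a mean log2 CPM of at least 2 came from several cell types. Mmp12, the macrophage elastase, was lowest, at 0.491 CPM in the low-Csf1r DMSO library (others 14.9, 14.5 and 16.8) and 0.136 CPM in the low-Csf1r inhibitor library (others 15.8 and 17.2), a difference of -5.57. Cybb, the catalytic subunit of the phagocyte NADPH oxidase, had 1.698 and 0 CPM (others 17.7 ± 3.801, SD, n = 5). Lilrb4a and Lilr4b, leukocyte receptor genes so alike that their counts cannot be separated with certainty, had differences of -4.44 and -4.41. Lgals3, a lectin of activated macrophages, was at 14.5 and 4.68 CPM (others 199.9 ± 41.9, SD, n = 5). The iron carrier gene Lcn2 stood at 3.55 and 0.773 CPM (others 62.3 ± 13.3, SD, n = 5), and Anxa1, an anti-inflammatory annexin, at 1.698 and 0.273 CPM (others 22.97 ± 2.497, SD, n = 5). Cd248, a surface protein of pericytes and fibroblasts, was at 2.11 and 0.318 CPM (others 29.7 ± 4.91, SD, n = 5), and the matrix glycoprotein gene Tinagl1 at 0.906 and 0.637 CPM (others 25.1 ± 4.45, SD, n = 5). The last was Bcas1, a gene of newly forming oligodendrocytes, at 2.76 and 0.546 CPM (others 34.4 ± 17.1, SD, n = 5). For all 10 genes both low-Csf1r libraries lay under every other vehicle library, inhibitor vehicle 2 more so than DMSO vehicle 1.

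**Figure D2:**
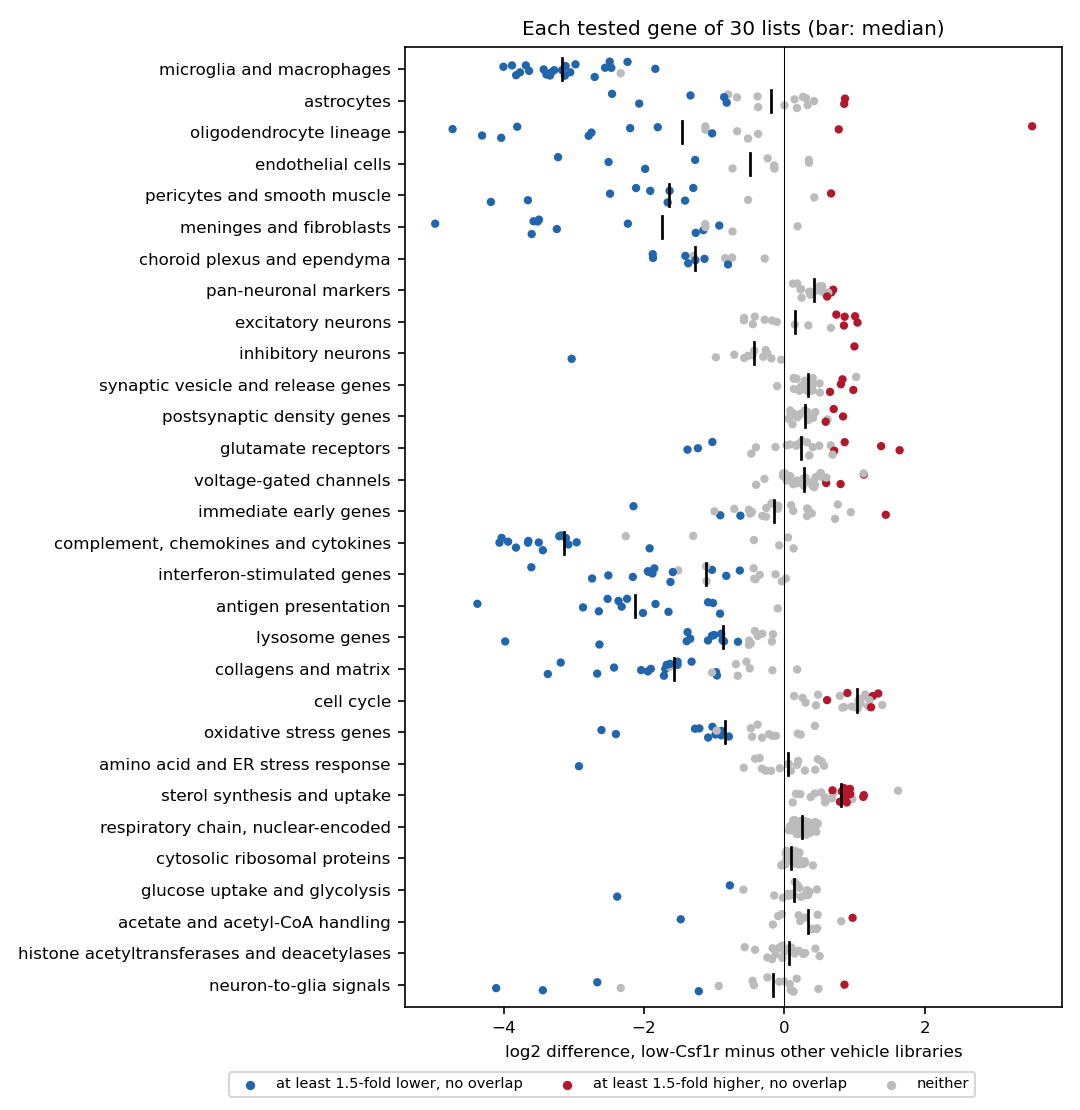
Each point is a tested gene of 1 of 30 lists, placed by its log2 difference of the low-Csf1r from the other vehicle libraries; blue genes were called lower, red genes higher and grey genes neither, and bars mark list medians. Microglial, complement and antigen presentation genes lie furthest left, sterol and cell cycle genes lie to the right of 0, and Olig1 stands alone at 3.53 among oligodendrocyte lineage genes that are mostly lower.

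Genes of the meninges, vessel wall and matrix were also low, so the division was not one of microglia alone. Of 14 meningeal and fibroblast genes 10 were lower (median -1.75), and their summed level was 153 and 48.1 CPM in the low-Csf1r libraries against 531 to 713 CPM. Col1a1, the main fibrillar collagen chain, stood at 37.3 CPM in the low-Csf1r DMSO library (others 252, 224 and 308) and 6.96 CPM in the low-Csf1r inhibitor library (others 178 and 248). Dcn and Lum, small leucine-rich proteoglycan genes, differed less (-1.26 and -1.15). In the pericyte and smooth muscle list 9 of 12 genes were lower and 1 was higher (median -1.65). Acta2, smooth muscle actin, showed how unequal the low-Csf1r libraries could be: it was at 73.3 CPM in the low-Csf1r DMSO library (others 123, 111 and 204) and 4.55 CPM in the low-Csf1r inhibitor library (others 115 and 125), or -0.94 in the DMSO group and -4.70 in the inhibitor group on the log2 scale. Tagln, another contractile gene, was at 45.5 and 5.64 CPM (others 126 ± 31.5, SD, n = 5), and Pdgfrb, the receptor that pericytes need, at 18.4 and 7.73 CPM (others 34.5 ± 3.602, SD, n = 5). Rgs5 was the higher member, with 34.6 and 38.8 CPM (others 23.4 ± 3.37, SD, n = 5). Of 24 collagen and matrix genes 16 were lower and none higher (median -1.57). Fn1 (fibronectin) was at 85.7 and 21.1 CPM (others 191 ± 44.8, SD, n = 5), the basement membrane chain Col4a1 at 133 and 64.8 CPM (others 193 ± 30.8, SD, n = 5), and Sparc, with 1111 CPM in the low-Csf1r DMSO library (others 1056, 982 and 1309) and 355 CPM in the low-Csf1r inhibitor library (others 1089.8 and 1179), was low in inhibitor vehicle 2 alone. Choroid plexus and ependymal genes were lower in 7 of 11 cases (median -1.27), the folate carrier gene Folr1 among them at 10.2 and 4.82 CPM (others 19.96 ± 3.49, SD, n = 5). Ttr, the transthyretin gene of the choroid plexus, varied widely, at 159 CPM in the low-Csf1r DMSO library (others 457, 372 and 976) and 450.0 CPM in the low-Csf1r inhibitor library (others 894 and 567), and its ranges overlapped. Foxj1, which drives motile cilia, was at 92.5 CPM in the low-Csf1r DMSO library (others 92.2, 94.3 and 109) and 21.4 CPM in the low-Csf1r inhibitor library (others 92.2 and 83.3), low in inhibitor vehicle 2 only. Endothelial genes were scarce in every library: 10 of 15 could be tested, 4 of them were lower (median -0.49), Flt1 and Cdh5 were at 0 in inhibitor vehicle 2, and Pecam1 was at 0.453 and 0.591 CPM (others 0.5704 ± 0.233, SD, n = 5). None of the 8 red blood cell genes could be tested, 7 for low counts and 1 that the table does not list.

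The name under which these libraries were set apart, low against high in glia, held for astrocytes only in part. The summed level of the astrocyte list was 6852 and 6871 CPM in the low-Csf1r libraries and 13072 to 16641 CPM in the others, and its mean log2 level was 6.68 and 6.70 against 6.86 to 7.195, so that both were below all others. Most of the gap in the summed level lay in Gfap, whose values are given below. Single genes went both ways. Among 18 astrocyte genes 5 were lower (Gfap, Aldoc, Gjb6, Ntsr2 and Clu), 2 were higher (Slc4a4 and Acsbg1) and 11 were neither, with a median of -0.19 (-0.61 when scaled on neuronal markers), and 9 of the 18 had negative differences. Gfap, the intermediate filament that increases in reactive astrocytes, was at 2344 CPM in the low-Csf1r DMSO library (others 9729, 8224 and 8835) and 2156 CPM in the low-Csf1r inhibitor library (others 9453 and 10769), with no overlap. In contrast Slc1a3, the glutamate transporter GLAST, was at 721 CPM in the low-Csf1r DMSO library (others 635, 512 and 516) and 725 CPM in the low-Csf1r inhibitor library (others 476 and 567), which put both low-Csf1r libraries above all others at less than 1.5-fold (0.42). Aldh1l1, a folate enzyme used as a pan-astrocyte marker, was at 153 and 168 CPM (others 144 ± 10.7, SD, n = 5) (difference 0.15). Aqp4, the water channel of astrocyte endfeet, had 47.3 and 33.1 CPM (others 71.9 ± 27.5, SD, n = 5), and DMSO vehicle 1 lay inside the range of the others.

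Most genes of the oligodendrocyte lineage had lower levels, and a neighbouring pair was higher. Of 16 genes, 14 had negative differences, 9 were called lower and 2 higher, with a median of -1.46. Gpr17, a receptor of committed precursors, was at 2.49 CPM in the low-Csf1r DMSO library (others 40.3, 22.3 and 33.3) and 0.136 CPM in the low-Csf1r inhibitor library (others 6.72 and 10.8). The myelin gene Mbp stood at 6.42 and 7.78 CPM (others 25.7 ± 6.37, SD, n = 5). Sox10, the factor that activates myelin genes, was at 7.397 and 1.14 CPM (others 19.2 ± 9.17, SD, n = 5), and Myrf, another transcription factor of myelin genes, had a difference of -2.79. Pdgfra, the growth factor receptor of precursors, had 4.23 and 1.14 CPM (others 5.86 ± 1.96, SD, n = 5) and was not called, since DMSO vehicle 1 lay inside the range of the others. The others themselves differed here: Gpr17 was at 22.3 to 40.3 CPM with DMSO and at 6.72 and 10.8 CPM with the inhibitor. The 2 genes called higher were Olig1 and Olig2, which encode related basic helix-loop-helix factors of this lineage and lie side by side. Olig1 (chr16:91269769-91271939 on GRCm38.p6) had the largest positive difference of all genes at that level, 3.53: it was at 697 CPM in the low-Csf1r DMSO library (others 72.4, 70.9 and 66.1) and 930.1 CPM in the low-Csf1r inhibitor library (others 54.5 and 82.9). Olig2 was at 67.8 CPM in the low-Csf1r DMSO library (others 38.7, 37.1 and 37.3) and 54.1 CPM in the low-Csf1r inhibitor library (others 32.4 and 34.5), a difference of 0.78. The 8 acetate libraries had Olig1 at 307 to 939.7 CPM, level with the low-Csf1r libraries and above all 5 others.

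**Figure D3:**
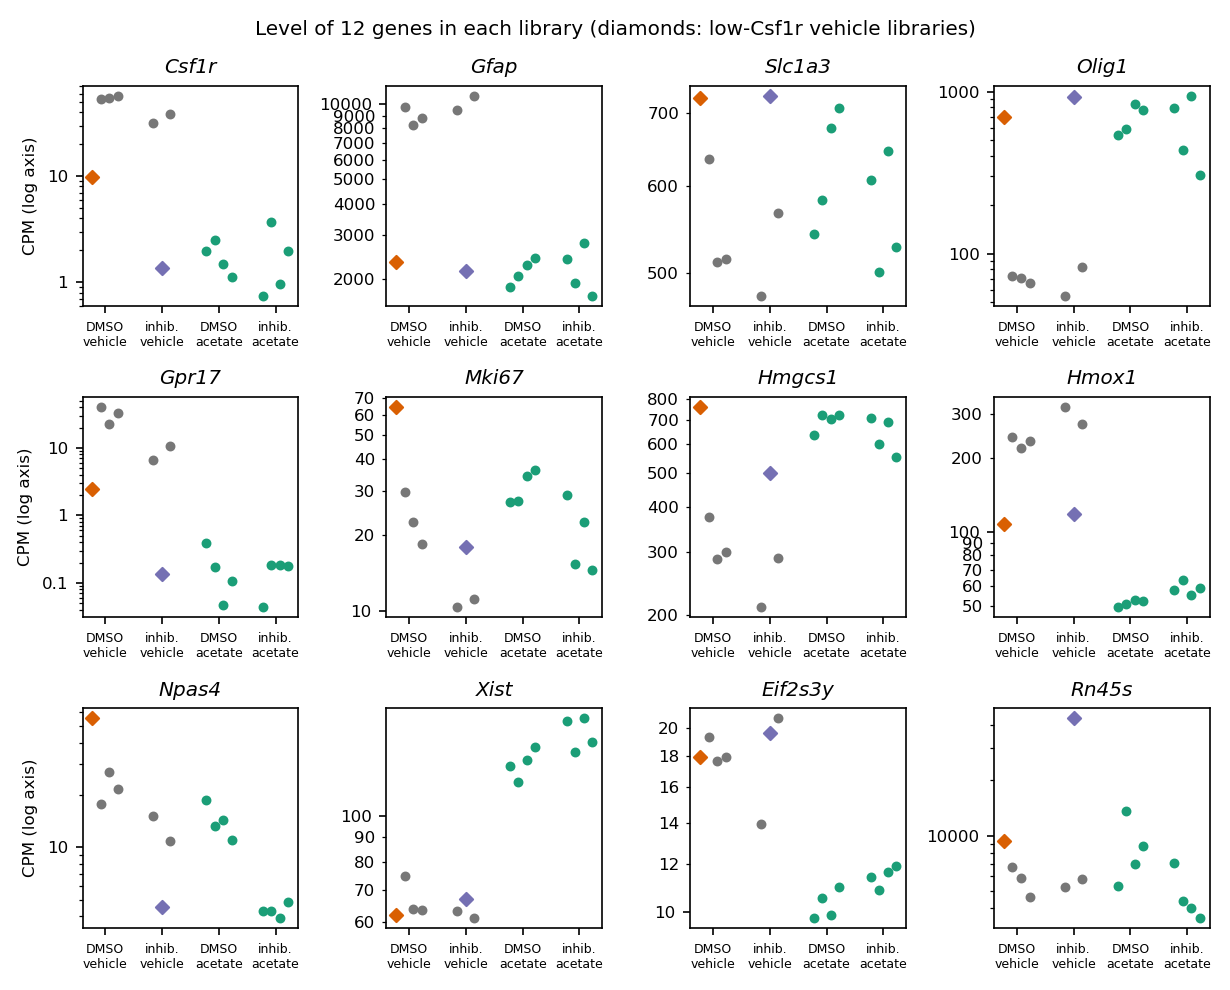
CPM of 12 genes in each of the 15 libraries on log axes; diamonds are DMSO vehicle 1 (orange) and inhibitor vehicle 2 (violet), grey points the other vehicle libraries and green points the acetate libraries. Csf1r, Gfap and Hmox1 are low and Olig1 and Hmgcs1 high in both diamonds and in the acetate libraries, whereas Xist and Eif2s3y of the diamonds lie among the other vehicle libraries.

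Neuronal and synaptic genes were slightly higher in the low-Csf1r libraries, mostly by less than 1.5-fold. All 16 pan-neuronal genes had positive differences (median 0.43) and 3 were called higher. Tubb3, neuronal tubulin, was at 2117 CPM in the low-Csf1r DMSO library (others 1054, 1165 and 1211) and 1592 CPM in the low-Csf1r inhibitor library (others 1053 and 1248). Rbfox3, which encodes NeuN, was at 244 and 266 CPM (others 214 ± 15.7, SD, n = 5), and Map2 at 387 and 354 CPM (others 288 ± 41.8, SD, n = 5). In the list of vesicle and release genes 4 of 23 were higher (median 0.34). The vesicle fusion gene Snap25 was at 236 and 245 CPM (others 171 ± 10.96, SD, n = 5) and the vesicle protein gene Syp at 1767 and 2129 CPM (others 1459 ± 240.2, SD, n = 5). The list of the postsynaptic density had 3 higher genes of 22 (median 0.29), and voltage-gated channels 3 of 30 (median 0.29). Among 22 glutamate receptor genes 4 were higher (Gria3, Grin2a, Grm3 and Grm7) and 3 lower (Grm2, Grm8 and Grik1), where 3.17% and 12.2% of all genes were. Grm3 had the largest difference, with 16.8 and 23.2 CPM (others 6.21 ± 1.01, SD, n = 5), while the main AMPA and NMDA subunit genes Gria1 (0.16) and Grin1 (-0.13) were called neither way. Scaling the libraries on the pan-neuronal genes instead lowered the median of all genes by 0.43 (log2). It sets the pan-neuronal median near 0 by construction (0.00088), so that value tells nothing about those genes. The medians of the other lists changed sign, to -0.08 for vesicle, -0.13 for postsynaptic, -0.14 for channel and -0.19 for receptor genes. A direction for these lists thus holds only on the main scale.

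Markers of excitatory and of inhibitory neurons are given side by side, and the difference between the lists was not tested. Of 15 excitatory genes 5 were higher and none lower, while 8 differences were positive and 7 negative (median 0.15, but -0.27 when scaled on neuronal markers). Slc17a7, the vesicular glutamate transporter, was at 892 CPM in the low-Csf1r DMSO library (others 381, 523 and 517) and 673 CPM in the low-Csf1r inhibitor library (others 512 and 416), and Neurod6, a factor of pyramidal cells, at 322 and 314 CPM (others 157 ± 20.8, SD, n = 5). Camk2a, the synaptic kinase, was at 815 and 804 CPM (others 443 ± 68.1, SD, n = 5). Prox1, the factor of dentate granule cells, was at 7.74 and 11.2 CPM (others 13.9 ± 2.25, SD, n = 5) and was among the 7 with a negative difference. Of 13 inhibitory genes 12 had negative differences (median -0.43, and -0.86 so scaled), but only Pvalb was called lower and only Calb2 higher. Parvalbumin, the calcium buffer of fast-spiking interneurons, was at 2.11 CPM in the low-Csf1r DMSO library (others 18.7, 13.8 and 14.7) and 1.91 CPM in the low-Csf1r inhibitor library (others 15.9 and 19.1). Calb2 (calretinin) was at 188 CPM in the low-Csf1r DMSO library (others 123, 138 and 136) and 292 CPM in the low-Csf1r inhibitor library (others 110.2 and 97.9). Gad1 and Gad2, the enzymes that make GABA, had differences of -0.45 and -0.26, with overlap for both.

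Sterol synthesis genes were higher as a group, and cell cycle genes were higher in each low-Csf1r library than in its own vehicle group. Cholesterol is made from acetyl-CoA through the mevalonate pathway, whose genes are switched on together by SREBP2 when membrane sterol is low. All 24 sterol genes had positive differences, 12 were called higher and none lower (median 0.81, and 0.38 when scaled on neuronal markers). Hmgcs1, which makes HMG-CoA, was at 762 CPM in the low-Csf1r DMSO library (others 377, 286 and 299) and 498 CPM in the low-Csf1r inhibitor library (others 210.3 and 288). Both low-Csf1r libraries were above all others, DMSO vehicle 1 more so. The later enzymes Sqle, at 321 and 168 CPM (others 135 ± 23.1, SD, n = 5), and Dhcr7, at 218 and 179 CPM (others 113 ± 5.86, SD, n = 5), were called. The mean log2 level of the list was 6.84 in DMSO vehicle 1 and 6.07 in inhibitor vehicle 2, against 5.39 to 6.02 in the others and 6.25 to 6.66 in the acetate libraries.

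The sterol element, bound by SREBP factors and searched as TCACNCCA on both strands of the same promoter windows, occurred in 523 of 11380 genes (4.6%) and in 3 of 16 sterol genes with a promoter entry (18.8%), Hmgcs1, Msmo1 and Srebf2. Among the genes called higher it was in 20 of 337 (5.93%) and among those called lower in 81 of 1330 (6.09%). The stretch around the match of Hmgcs1, the first gene in list order that held one, is given. The match begins 137 bases before the gene start on the plus strand. The stretch is chr13:119690174-119690293 on GRCm38.p6, 5′ to 3′, with the element in capitals.
Hmgcs1: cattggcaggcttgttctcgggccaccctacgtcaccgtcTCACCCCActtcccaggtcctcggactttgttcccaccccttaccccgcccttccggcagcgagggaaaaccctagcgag

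Proliferation genes were higher in each low-Csf1r library than in its own group, for all 24 list members in both groups (median difference 1.03, and 0.60 when scaled on neuronal markers). Only 5 were called higher, and the level also differed between the DMSO and inhibitor groups. Mki67, expressed in dividing cells, was at 64.5 CPM in the low-Csf1r DMSO library (others 29.6, 22.6 and 18.5) and 17.97 CPM in the low-Csf1r inhibitor library (others 10.3 and 11.2). DMSO vehicle 1 was therefore the highest vehicle library by far, and inhibitor vehicle 2 exceeded only its own group. Top2a, the topoisomerase of dividing cells, was at 108 CPM in the low-Csf1r DMSO library (others 49.5, 37.5 and 39.2) and 44.4 CPM in the low-Csf1r inhibitor library (others 17.6 and 27.1). The mitotic cyclin gene Ccnb1 was at 31.97 CPM in the low-Csf1r DMSO library (others 9.86, 8.14 and 8.88) and 9.23 CPM in the low-Csf1r inhibitor library (others 4.397 and 6.55), and its kinase gene Cdk1 at 66.4 CPM in the low-Csf1r DMSO library (others 24.5, 21.8 and 23.1) and 22.01 CPM in the low-Csf1r inhibitor library (others 10.9 and 16.1). All 3 were highest in DMSO vehicle 1, with inhibitor vehicle 2 above its own group and inside the range of the other DMSO libraries. Leaving out DMSO vehicle 1 alone moved the acetate difference without inhibitor from -0.01 to 0.70 for Ccnb1 and from -0.08 to 0.47 for Cdk1 (log2). Both genes were highest in that vehicle library, so leaving it out had to raise their differences.

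Genes of the oxidative stress response were lower in 11 of 22 cases and none was higher (median -0.84). Hmox1, heme oxygenase 1, was at 108 CPM in the low-Csf1r DMSO library (others 242, 219 and 233) and 118 CPM in the low-Csf1r inhibitor library (others 321 and 273). Nqo1, a quinone reductase and a classic target of NRF2, was at 4.04 and 2.14 CPM (others 19.01 ± 1.58, SD, n = 5), and Srxn1, which repairs peroxiredoxins, at 89.3 and 89.2 CPM (others 166 ± 12.2, SD, n = 5), whereas Gclm, of glutathione synthesis, was not called (-0.48). The list of the amino acid and ER stress response was near the background (1 lower gene, Nupr1, of 18, with a median of 0.06), and within it Atf4, Ddit3 and Chac1 were highest in inhibitor vehicle 1 or 2. In metabolism, 2 of 18 glycolysis genes were lower, near the 12.2% of all genes, namely the monocarboxylate transporter genes Slc16a1 and Slc16a3. The glucose transporter gene Slc2a1 was at 41.7 and 29.2 CPM (others 53.2 ± 1.04, SD, n = 5) and low in both, at just under 1.5-fold (-0.58). None of the 29 respiratory chain genes, 32 ribosomal protein genes or 21 histone acetyltransferase and deacetylase genes was called (medians 0.25, 0.10 and 0.07), where 12.2% of all genes were lower and 3.17% higher. Yet all 29 respiratory chain genes had positive differences. Their mean log2 level was 7.83 and 7.96 in the low-Csf1r libraries against 7.57 to 7.69 in the others. Their median was -0.18 when scaled on neuronal markers. In the acetyl-CoA list, Acacb alone was lower and Acat2 alone higher among 14, where 12.2% of all genes were lower and 3.17% higher. Acss2 itself was at 35.8 CPM in the low-Csf1r DMSO library (others 21.4, 22.7 and 23.03) and 18.2 CPM in the low-Csf1r inhibitor library (others 15.3 and 20.5), so that DMSO vehicle 1 was the highest and inhibitor vehicle 2 was inside the range of the others. Acly, which makes acetyl-CoA from citrate, was at 245 CPM in the low-Csf1r DMSO library (others 128, 116 and 117) and 125 CPM in the low-Csf1r inhibitor library (others 73.4 and 97.7), again highest in DMSO vehicle 1.

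Among 18 genes of signalling between neurons and glia 4 were lower and 1, Ptn, was higher (median -0.16), where 12.2% and 3.17% of all genes were. The lower ones, Cd200r1, Tgfb1, Igf1 and Sirpa, included the microglial receptor of CD200, whereas the neuronal ligand genes Cx3cl1, at 259 and 344 CPM (others 268 ± 43.02, SD, n = 5), and Cd200, at 88.3 and 81.01 CPM (others 75.1 ± 5.04, SD, n = 5), were neither lower nor higher. Csf1, a ligand of the receptor used to divide the libraries, was at 68.95 CPM in the low-Csf1r DMSO library (others 72.5, 63.7 and 73.5) and 26.97 CPM in the low-Csf1r inhibitor library (others 55.7 and 51.8), low in inhibitor vehicle 2 alone, and Il34, its other ligand, at 2.19 CPM in the low-Csf1r DMSO library (others 3.28, 2.81 and 3.79) and 6.96 CPM in the low-Csf1r inhibitor library (others 5.26 and 5.53), was lowest in DMSO vehicle 1 and highest in inhibitor vehicle 2.

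**Figure D4:**
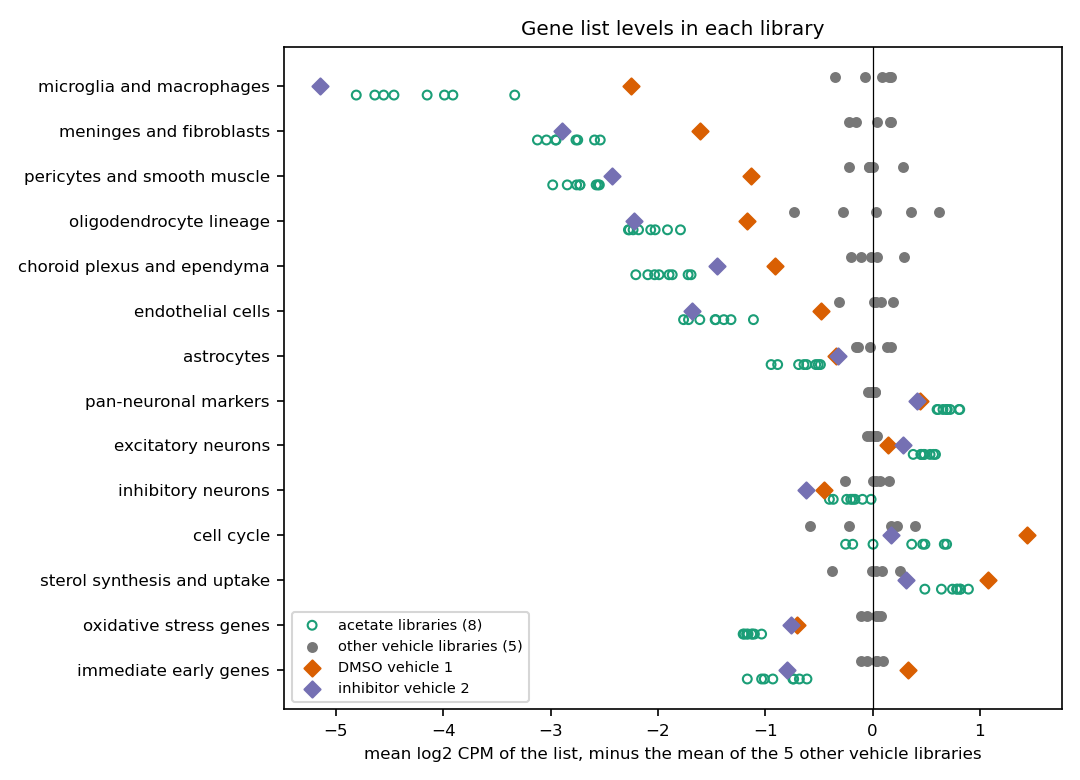
Mean log2 CPM of 14 gene lists in each library, minus the mean of the 5 other vehicle libraries (grey); diamonds are DMSO vehicle 1 (orange) and inhibitor vehicle 2 (violet) and open circles the 8 acetate libraries. For the vascular, meningeal and oligodendrocyte lists inhibitor vehicle 2 lies with the acetate libraries and DMSO vehicle 1 between them and the other vehicle libraries, and for the immediate early genes the diamonds lie on opposite sides of 0.

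Immediate early genes, which neuronal activity switches on within minutes, separated the low-Csf1r libraries from each other. Of 26 genes 3 were lower (Atf3, Dusp1 and Gadd45b) and 1 higher (Dusp6), near the 12.2% and 3.17% of all genes, with a median of -0.15. But 18 of 26 were above their own group in DMSO vehicle 1 and 21 of 26 were below it in inhibitor vehicle 2 (within-group medians 0.23 and -0.70). Npas4, which responds to calcium entry through activity, was at 55.4 CPM in the low-Csf1r DMSO library (others 17.7, 27.2 and 21.6) and 4.55 CPM in the low-Csf1r inhibitor library (others 15.2 and 10.9). Egr1 was at 51.5 CPM in the low-Csf1r DMSO library (others 31.5, 21.7 and 18.6) and 15.01 CPM in the low-Csf1r inhibitor library (others 24.6 and 31.05). Arc, a regulator of AMPA receptor uptake, was at 13.2 CPM in the low-Csf1r DMSO library (others 11.6, 14.4 and 13.3) and 2.001 CPM in the low-Csf1r inhibitor library (others 9.48 and 8.29), so that it was level with its group in DMSO vehicle 1 and the lowest of all 7 in inhibitor vehicle 2. Fos was at 20.3 CPM in the low-Csf1r DMSO library (others 23.7, 16.7 and 14.7) and 9.32 CPM in the low-Csf1r inhibitor library (others 22.3 and 24.4), and Bdnf, the neurotrophin, at 61.8 CPM in the low-Csf1r DMSO library (others 49.8, 51.4 and 47.7) and 29.02 CPM in the low-Csf1r inhibitor library (others 42.03 and 47.4). Junb gave within-group differences of 0.31 and -1.81. Homer1 was above its group in both (0.20 in the DMSO group and 0.50 in the inhibitor group on the log2 scale). Against vehicle, with the low-Csf1r libraries kept in, 18 of 26 of these genes fell and 1 rose with acetate without inhibitor, and 16 fell and none rose with acetate and inhibitor (edgeR quasi-likelihood test with Benjamini-Hochberg adjustment over 15075 genes). Over all genes 27.1% fell and 24.1% rose in the first comparison, and 20.2% fell and 14.7% rose in the second. Npas4 fell by 1.08 ± 0.34 (log2, SE; adjusted p = 0.0164) without and by 1.24 ± 0.39 (adjusted p = 0.0254) with inhibitor in edgeR's test, and without both low-Csf1r libraries the first became -0.61 (adjusted p = 0.00306) and the second -1.58 (adjusted p = 3.19e-06).

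**Figure D5:**
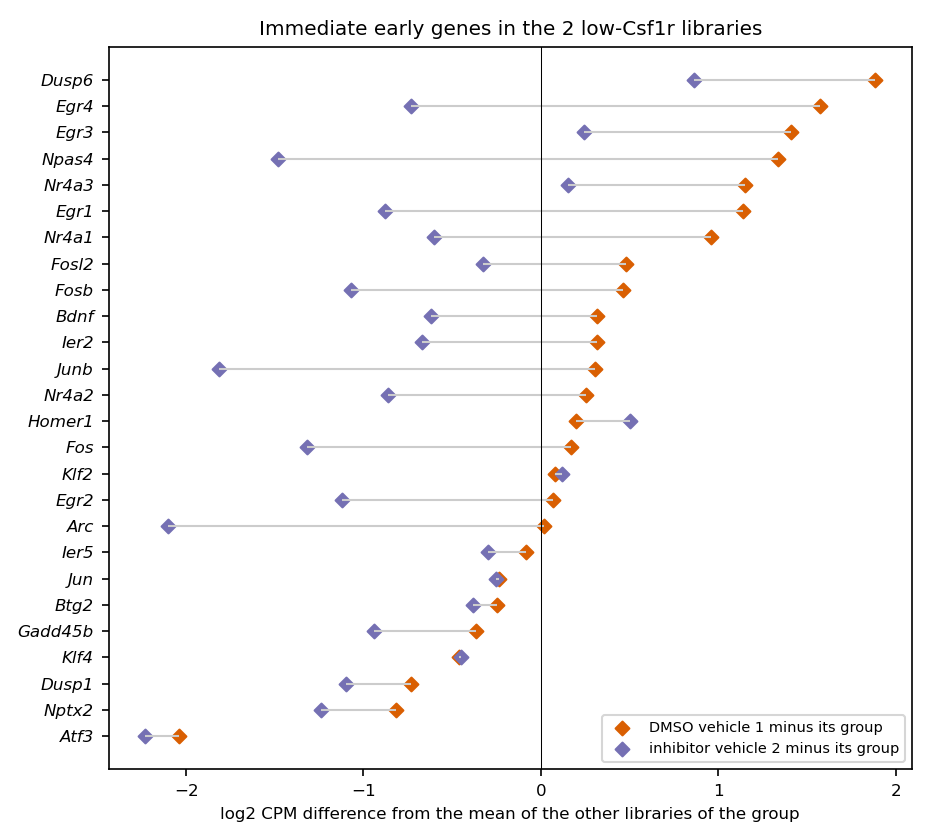
For 26 immediate early genes, the log2 CPM difference of DMSO vehicle 1 (orange) and of inhibitor vehicle 2 (violet) from the mean of the other libraries of its own group; lines join the values of a gene. Orange points lie right of 0 for 18 genes and violet points left of 0 for 21 genes, furthest apart for Npas4, Egr4, Junb and Arc.

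The 10 genes with the highest differences held genes that were high in both libraries and genes that were high mainly in inhibitor vehicle 2. Igfbp4, which binds insulin-like growth factors, was at 357 CPM in the low-Csf1r DMSO library (others 68.04, 76.8 and 70.05) and 408 CPM in the low-Csf1r inhibitor library (others 85.2 and 79.8). Dio2, which activates thyroid hormone, stood at 74.3 CPM in the low-Csf1r DMSO library (others 19.96, 17.3 and 16.5) and 152 CPM in the low-Csf1r inhibitor library (others 26.3 and 25.4). Fam212b was at 84.7 and 114 CPM (others 24.1 ± 1.84, SD, n = 5) and Tmem229a at 25.4 and 36.9 CPM (others 7.78 ± 1.03, SD, n = 5). Rab26, a small GTPase of secretory vesicles, was at 19.7 and 29.9 CPM (others 6.23 ± 2.14, SD, n = 5), and the semaphorin gene Sema4a at 31.2 and 36.3 CPM (others 8.82 ± 1.16, SD, n = 5). Rn45s was at 9366 CPM in the low-Csf1r DMSO library (others 6712, 5831 and 4632) and 43797 CPM in the low-Csf1r inhibitor library (others 5213 and 5817). Mir6236 and Lars2, loci that carry ribosomal RNA-like sequence so that their counts are uncertain, followed it, at 585 and 2822 CPM (others 347 ± 42.4, SD, n = 5) and 639 and 2616 CPM (others 358 ± 37.4, SD, n = 5). For these 3 rows inhibitor vehicle 2 was far above every library and DMSO vehicle 1 less than 2-fold above the mean of the others.

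Not every gene that differed between acetate and vehicle followed this division. Xist, the RNA that coats the inactive X chromosome, was at 61.9 CPM in the low-Csf1r DMSO library (others 74.6, 63.8 and 63.4) and 67.04 CPM in the low-Csf1r inhibitor library (others 63.02 and 60.96), a difference of -0.01, while the acetate libraries held 117 to 160.0 CPM. It rose by 0.96 ± 0.08 (log2, SE; adjusted p = 3.04e-06) with acetate without inhibitor and by 1.23 ± 0.09 (adjusted p = 8.19e-06) with inhibitor in edgeR's test. The Y-linked Eif2s3y was at 17.9 CPM in the low-Csf1r DMSO library (others 19.3, 17.7 and 17.9) and 19.6 CPM in the low-Csf1r inhibitor library (others 13.9 and 20.7) (0.07) and fell by 0.82 ± 0.11 (adjusted p = 5.39e-05) and by 0.66 ± 0.11 (adjusted p = 0.00114) with acetate in edgeR's test. Nts, neurotensin, was at 0.453 and 1.501 CPM (others 0.652 ± 0.346, SD, n = 5) and at 5.49 to 9.58 CPM in the acetate libraries. Nrsn2 had 1.51 and 3.18 CPM (others 1.75 ± 0.622, SD, n = 5) against 7.76 to 14.8 CPM with acetate, and inhibitor vehicle 2 was highest of the vehicle libraries by a small margin. Rasl11b, at 28.5 and 29.2 CPM (others 26.4 ± 2.45, SD, n = 5), was neither, and with acetate it fell by 0.80 ± 0.09 without inhibitor and rose by 0.35 ± 0.10 with it (adjusted p = 3.04e-05 and 0.0165, edgeR), though the second value was -0.14 when scaled on neuronal markers.

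The difference of each low-Csf1r library from its own group was set beside the acetate effect of the other arm, with which it shares no library. Yet the vehicle group of that arm holds the other library picked for low Csf1r. Whether a gene fell or rose was decided in 1 fit of 15 libraries, so both low-Csf1r libraries enter the spread behind those calls. The differences of DMSO vehicle 1 from its group and the acetate effects with inhibitor had r = 0.71 and rho = 0.52 across 14939 genes, and those of inhibitor vehicle 2 and the acetate effects without inhibitor r = 0.83 and rho = 0.63, both as descriptions across genes. Of 1732 genes lower in inhibitor vehicle 2, 1310 (75.6%) fell with acetate without inhibitor, which was 38.6% of the 3398 that fell there, while 24.8% of all 13683 genes fell. Of 1531 genes lower in DMSO vehicle 1, 756 (49.4%) fell with acetate and inhibitor, or 29.6% of 2553, while 18.7% of all genes fell. The shares were smaller for higher genes, 405 of 920 (44%) and 222 of 858 (25.9%), which were 11.4% of the 3560 and 10.3% of the 2159 that rose, while 26% and 15.8% of all genes rose.

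Most microglial and matrix genes fell with acetate in both arms, with the low-Csf1r libraries kept among the vehicle samples. Of all genes 27.1% fell without inhibitor and 20.2% with it. In the microglial list 22 of 23 fell without inhibitor and 23 of 23 with it. Csf1r fell by 4.57 ± 0.80 (log2, SE; adjusted p = 0.000411) and by 3.70 ± 0.82 (adjusted p = 0.00436) in edgeR's test, with 0.7403 to 3.68 CPM in the acetate libraries. In the matrix list 22 of 24 and 18 of 24 fell. In the oligodendrocyte list 14 of 16 fell without inhibitor but only 8 of 16 with it, and 0 rose in either arm. Sterol genes rose in 10 of 24 cases (1 fell; median 0.44, but -0.18 when scaled on neuronal markers) and in 14 of 24 cases (none fell; median 0.63, and 0.17 so scaled). In the cell cycle list 0 of 24 genes rose in either arm, where 24.1% and 14.7% of all genes rose, and 4 fell without inhibitor and none with it. Its medians were -0.10 and 0.17, and 0.34 and 0.39 without both low-Csf1r libraries. These comparisons use the same vehicle libraries as the division by Csf1r, so they are set side by side and not as support for it. Leaving out both low-Csf1r libraries raised the number of genes that rose with acetate and inhibitor from 2214 to 3462, and that of genes that fell from 3051 to 4030. Without inhibitor the numbers went from 3631 to 4349 and from 4082 to 4747. Leaving out another inhibitor vehicle library lowered the numbers with inhibitor, to 1185 that rose and 1900 that fell without inhibitor vehicle 1, and to 1391 and 1857 without inhibitor vehicle 3. The libraries left out were chosen by their values, so the adjusted p-values of these fits describe the remaining 13 libraries only.

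Genes picked as highest in the low-Csf1r libraries must have larger acetate differences once these libraries are left out of the vehicle groups, so the values without them are given as a description. Olig1 was 1.60 ± 0.87 higher with acetate without inhibitor (log2, SE; adjusted p = 0.140) and 0.80 ± 0.94 higher with it (adjusted p = 0.534) in edgeR's test on all 15 libraries, and passed neither. Without DMSO vehicle 1 and inhibitor vehicle 2 the differences were 3.29 and 3.17. Igfbp4 went from 1.504 to 2.502 without inhibitor and from 0.61 to 1.82 with it, and Dio2 from 1.79 to 2.62 and from 0.57 to 1.96. Olig1 in both arms, and Igfbp4 and Dio2 with inhibitor, did not pass the threshold on all 15 libraries and passed it without these 2. Rn45s moved the other way: it fell by 1.94 ± 0.59 with acetate and inhibitor (adjusted p = 0.0198, edgeR) with inhibitor vehicle 2 among the controls, and the difference was -0.21 (adjusted p = 0.552) without it and DMSO vehicle 1.

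The effect of the inhibitor alone was tested in the same 7 vehicle libraries by their labels. No gene passed: 0 rose and 0 fell at an adjusted p under 0.05 in edgeR's quasi-likelihood test (0% of 14977), with 2305 genes at an unadjusted p under 0.05, of which 1318 were higher and 987 lower with inhibitor. DESeq2's Wald test called 204 that rose and 151 that fell. With a term for the low-Csf1r libraries in edgeR's model, 600 genes rose (4.01%) and 540 fell (3.61%), and without these 2 libraries 281 rose (1.86% of 15128) and 293 fell (1.94%). The last fits had 488 calls in common, all in the same direction. In the fit with the term 22 of 24 cell cycle genes fell with inhibitor (median -0.87) and none rose, 8 of 20 complement, chemokine and cytokine genes fell and 2 rose, and 0 of 32 ribosomal protein genes passed. In the fit without the low-Csf1r libraries fewer cell cycle genes fell, 13, and none rose. There 8 complement, chemokine and cytokine genes fell and none rose. Because that term was drawn from the measured values of the same libraries, these p-values describe the fits and are given beside the test by labels, which called none.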

How the data were processed

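Total RNA of primary mouse hippocampal cultures was sequenced after preparation with a directional (strand-marking) kit, per the labels' protocols. The authors deposited 1 table of whole-number read counts per gene and library. STAR 2.5.2a, HTSeq 0.6.1p1, DESeq2 and the build mm10 are named in the submitters' processing notes. Neither these notes nor the labels say which gene annotation was used or whether reads were counted by strand, which leaves overlapping and antisense genes uncertain. Rows that name no gene (38.9% to 47.4% of a library's total) were left out.

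The rule behind the division of the vehicle libraries, the gene lists and the rule for named genes were chosen with earlier results of these data known. Counts were scaled with TMM over all 15 libraries (edgeR 4.0.16, R 4.3.3) after edgeR's default filter on low counts by group, which left 14977 of 24498 genes in the 7 vehicle libraries, holding 99.96% of their gene counts, and 15075 in all 15. The low-Csf1r difference is a coefficient of the quasi-likelihood fit with the inhibitor as covariate. Within-group differences are of log2 CPM with a prior count of 2. The inhibitor was tested in the 7 vehicle libraries and acetate within each inhibitor arm in 1 fit of 15 libraries, with edgeR's quasi-likelihood test and Benjamini-Hochberg adjustment at 0.05. Named genes are the 10 lowest and 10 highest called genes with a mean log2 CPM of at least 2 (no numbered, ribosomal protein or mitochondrial genes), the first 4 tested members of each of 30 lists, and Csf1r, Fos, Arc, Bdnf, Hmox1, Acss2, Xist, Eif2s3y, Nts, Nrsn2 and Rasl11b; other names in the text were picked after their values were seen. The biological coefficient of variation of the vehicle fit was 11.9%. No pair of vehicle libraries agreed within sampling noise (chi-square per gene 4.65 to 143.8). Alternatives were DESeq2 1.42.0 size factors and its Wald test, no filter, scaling on neuronal markers, a replicate block, other call rules, each library left out, and, chosen after seeing the data, the ribosomal RNA rows left out. Values of some list members are not reported here.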

Additional observations from a re-analysis of the deposited data

Results flagged for a closer look

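Levels of 41 gene lists and genes were checked for a sample far from the other 3 in the DMSO vehicle group (Dixon's rule at 95%), and 14 stood out; chance flags about 1 in 20 such groups, and the inhibitor vehicle group of 3 was not checked. DMSO vehicle 1 was chosen for its low Csf1r, so its flags describe it and are no independent evidence. In mean log2 CPM it was low for microglia and macrophages (2.20, others 4.54 to 4.63), complement, chemokines and cytokines (1.40, others 3.42 to 3.62), interferon-stimulated genes (1.41, others 2.35 to 2.49), antigen presentation (2.31, others 3.88 to 4.11) and lysosome genes (6.58, others 7.39 to 7.47). It was high for pan-neuronal markers (8.198, others 7.72 to 7.79), postsynaptic density genes (6.88, others 6.45 to 6.50) and acetate and acetyl-CoA handling (6.17, others 5.91 to 5.92). Among single genes it stood at 9.89 CPM of Csf1r (others 53.1 to 56.8) and 35.8 CPM of Acss2 (others 21.4 to 23.03). DMSO vehicle 2 was set apart in 4 genes: 74.6 CPM of Xist (others 61.9 to 63.8), 19.3 CPM of Eif2s3y (others 17.7 to 17.9), 1.10 CPM of Nrsn2 (others 1.51 to 1.53) and 25.1 CPM of Rasl11b (others 28.5 to 29.2).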

How the results depend on the processing

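Scaling on neuronal markers, which lowered the median of all genes by 0.43 for the low-Csf1r difference and by 0.67 and 0.50 for acetate without and with inhibitor (log2), gave 4061 lower and 99 higher genes, 363 that rose and 11623 that fell with acetate without inhibitor, and 248 and 9440 with it. The acetate median of the pan-neuronal list, which this scaling sets near 0 by construction, was -0.017 without inhibitor. The scaling reversed the acetate values of Acss2 (-0.37 without and -0.0052 with inhibitor) and Rasl11b (-0.14 with inhibitor). The number of higher genes also moved with the call rule: 146 at 2-fold, 786 by fold alone, 899 in the DMSO group alone and 945 in the inhibitor group alone. The test of the inhibitor, with 0 calls, gave 600 that rose and 540 that fell with a term for the low-Csf1r libraries, 281 and 293 without them, and 204 and 151 in DESeq2's test. Without both libraries 3462 genes rose with acetate and inhibitor, and the acetate differences of Ccnb1 (0.70) and Cdk1 (0.47) reversed, as they did without DMSO vehicle 1 alone (ranges over single libraries left out -0.20 to 0.70 and -0.24 to 0.47).

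Leaving out each library in turn gave 1823 to 2434 lower genes and 463 to 935 higher genes (869 without DMSO vehicle 1 and 935 without inhibitor vehicle 2, where a lone low-Csf1r library remains). It gave 0 calls for the inhibitor in every case, 3102 to 3882 that rose and 3489 to 4393 that fell with acetate without inhibitor, and 1185 to 2909 and 1857 to 3591 with it, lowest without inhibitor vehicle 1 for genes that rose and without inhibitor vehicle 3 for genes that fell. The replicate numbers did not pair the vehicle samples (correlation of deviations -0.65 to 0.38 over 3 same-numbered pairs); with the number as a block 1823 genes were lower, 503 higher, 0 passed for the inhibitor, and 3447 rose and 3837 fell with acetate without and 1942 and 2567 with inhibitor. Of the list medians of the low-Csf1r difference, 592 values under all alternatives stayed within the spread between libraries, and 128 moved. The sign changed for 13 lists, 11 of them under scaling on neuronal markers, all with medians between -0.16 and 0.34 in the reported fit. Causes of these changes were not tested. At 1 read per 0.0324 to 0.0460 CPM, levels under 0.1 CPM in inhibitor vehicle 2 rest on 1 or 2 reads.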

Other observations

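In the fit with a term for the low-Csf1r libraries, the genes with the smallest p for the inhibitor in vehicle cultures, picked after their values were seen, included both neuronal pentraxins, secreted proteins that gather AMPA receptors at synapses. Nptx2 was at 13.5, 5.91 and 14.7 CPM with inhibitor and at 25.7, 37.5, 50.9 and 48.8 CPM with DMSO, and Nptx1 at 32.6, 59.9 and 37.0 CPM against 124.7, 74.1, 89.7 and 84.8 CPM. In each group the low-Csf1r library was lowest for Nptx2 and highest for Nptx1, and for both genes every inhibitor library was below every DMSO library. Their log2 differences were -1.81 ± 0.14 and -1.19 ± 0.10 (SE; adjusted p = 0.000339 and 0.000469 in edgeR's test with the term, 0.230 for both in the test by labels). Fndc9 gave -1.91 (adjusted p = 8.67e-05 with the term and 0.230 by labels). Pnck, a calcium/calmodulin-dependent kinase gene, was higher with inhibitor in all 3 libraries, at 179, 175 and 154 CPM against 88.3 to 104.6 CPM. Gpr84 and Acod1, genes of activated myeloid cells, had lower fitted levels with inhibitor, but DMSO vehicle 1 lay inside the range of the inhibitor libraries for both. Gpr84 was at 1.25, 0 and 2.46 CPM with inhibitor, against 12.6, 13.9 and 15.2 CPM in DMSO vehicle 2 to 4 and 1.92 CPM in DMSO vehicle 1. Acod1 was at 1.08, 0 and 1.33 CPM, against 8.60, 6.72 and 6.35 CPM and 0.302 CPM in the same order. In edgeR's test by labels the adjusted p was 0.251 for Gpr84 and 0.311 for Acod1. Within each group the low-Csf1r library was the lowest for both genes.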
